A study of Mus musculus with 8 samples.

Results

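The Serpin genes of mouse embryonic fibroblasts were examined in a gene table that sets Cbx2-/- cells against wild-type cells. The members were all rows whose symbol starts with Serpin, without Serpinh1, and there were 38 of them among 17441 genes. Their symbols place 13 of them in clade A (Serpina), 16 in clade B (Serpinb) and 9 in the smaller clades C, D, E, F, G and I. RefSeq annotates 69 mouse Serpin genes; the 38 members all matched one of these, and 30 genes with no row here are not analysed here.

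RNA was sequenced from primary fibroblasts of Cbx2-/- embryos (2 libraries, a targeted deletion of Chromobox 2) and of their wild-type littermates (2 libraries), both taken at embryonic day 18 and grown to passage 2 in the same serum-containing medium. Each library came from 200000 cells and about 4.62 Gb of sequence. Nothing in the labels ties a library to its own embryo or culture, so the p-values measure only the spread between these libraries, which may be technical. The labels name no Cre driver or tissue restriction for the deletion. ATAC-seq libraries of both genotypes (2 each) are not analysed here.

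Serpins are proteins of a common fold, most of which inhibit a serine or cysteine protease by acting as a bait: the protease cuts an exposed loop, the loop inserts into the body of the serpin and the protease is trapped in a covalent complex. Clade A, C, D, E, F, G and I serpins are mostly secreted and act in plasma and in the extracellular matrix, on clotting, fibrinolysis and complement. Clade B serpins mostly lack a classical signal peptide, stay inside the cell and protect it from its own granule and lysosomal proteases. In mice the Serpina3, Serpinb1, Serpinb6 and Serpinb9 genes have each been duplicated into groups of close copies. Cbx2 encodes a chromodomain subunit of Polycomb repressive complex 1.

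The promoters of 5 clade B genes whose RNA differed between the genotypes are shown first, to let their base composition and motifs be read beside the values that follow. Each is the 250 bases before the start site that RefSeq gives (GRCm38.p6), written 5′ to 3′ on the plus strand, on which all 5 genes lie. Serpinb1a, also of clade B, and Serpina3h differed between the genotypes too but had no promoter entry, so their promoters were not examined. Capitals mark a match to the AP-1 motif (TGANTCA) or to TATAAA, and a promoter without capitals holds neither these letters nor those of the other 2 motifs searched. In Serpinb2, Serpinb1b, Serpinb8 and Serpinb6b this start lies within the span that RefSeq gives for the gene as a whole. The regions are chr13:33027164-33027413 (Serpinb9b), chr13:33083853-33084102 (Serpinb1b), chr1:107511173-107511422 (Serpinb2), chr1:107589756-107590005 (Serpinb8) and chr13:32965011-32965260 (Serpinb6b).
Serpinb9b: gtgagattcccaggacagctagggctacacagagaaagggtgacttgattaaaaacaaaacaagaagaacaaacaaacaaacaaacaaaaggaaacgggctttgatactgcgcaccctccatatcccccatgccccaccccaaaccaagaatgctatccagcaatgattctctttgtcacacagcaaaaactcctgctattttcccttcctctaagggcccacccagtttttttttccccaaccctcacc
Serpinb1b: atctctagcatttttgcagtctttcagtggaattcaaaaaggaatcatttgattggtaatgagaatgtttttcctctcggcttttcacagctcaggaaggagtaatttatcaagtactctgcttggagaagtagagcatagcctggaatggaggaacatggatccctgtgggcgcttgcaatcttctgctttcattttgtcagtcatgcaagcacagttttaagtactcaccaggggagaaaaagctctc
Serpinb2: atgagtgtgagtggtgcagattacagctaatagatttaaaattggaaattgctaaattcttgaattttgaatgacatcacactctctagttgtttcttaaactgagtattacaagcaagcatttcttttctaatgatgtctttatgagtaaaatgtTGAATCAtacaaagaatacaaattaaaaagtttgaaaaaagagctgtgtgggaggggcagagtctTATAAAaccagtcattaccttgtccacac
Serpinb8: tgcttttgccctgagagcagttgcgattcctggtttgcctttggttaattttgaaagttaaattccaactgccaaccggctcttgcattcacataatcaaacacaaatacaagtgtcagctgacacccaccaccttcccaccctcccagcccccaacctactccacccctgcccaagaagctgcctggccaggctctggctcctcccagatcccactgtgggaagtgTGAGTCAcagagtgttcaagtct
Serpinb6b: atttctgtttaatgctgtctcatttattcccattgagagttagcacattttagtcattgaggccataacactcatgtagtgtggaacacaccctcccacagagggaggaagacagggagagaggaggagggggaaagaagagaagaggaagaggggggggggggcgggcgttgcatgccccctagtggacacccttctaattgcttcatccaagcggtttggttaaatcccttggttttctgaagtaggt

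Most Serpin promoters were poor in CpG. Among the 30 members with an entry in the RefSeq promoter table, the median number of CpG dinucleotides in these 250 bases was 2.00, against 14.0 in the 13621 genes of the table with an entry. At most 3 CpG were found in 23 of the 30 (76.7%), against 14.6% of genes in the table. Of the 5 promoters printed above, Serpinb2 held 0 CpG, Serpinb9b, Serpinb1b and Serpinb8 held 2 each, and Serpinb6b held 3. The most CpG were in Serpine2 (34), Serpinb6a (20) and Serpini1 (13), none of which passed the test between the genotypes. Most of the 23 members with at most 3 CpG did not pass it either. The AP-1 letters, searched on both strands, occurred in Serpinb2 (bases 94 to 88 before the start), Serpinb8 (23 to 17), Serpinb7 and Serpinb10, which are all 4 members on chromosome 1 that belong to clade B. They occurred in 6.85% of all 27025 promoters of that table. TATAAA lay 29 to 24 bases before the start of Serpinb2 and 132 to 127 bases before that of Serpina3c. On the opposite strand it lay in Serpina3f (186 to 181) and Serpinb7 (239 to 234 and 33 to 28). With both strands searched, 3507 of the 27025 promoters held it. A STAT motif (TTCNNNGAA, 7.14% of all promoters) was found in Serpina3f, Serpina3g, Serpina3i, Serpina11, Serpinb6a and Serpinb9c. The E-box CACGTG, present in 6.04% of all promoters, matched in none of the 30 windows. A match is a run of letters, and no binding was measured.

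The gene table gives 1 normalised read value per genotype, a log2 fold change (Cbx2-/- over wild type) and a DESeq2 p-value with its Benjamini-Hochberg adjustment. The mean of the 2 values of a gene equals the mean of its scaled reads in all 4 libraries, and their ratio is a fold change shrunken toward 0, so the difference between them understates the change of genes with few reads. The reads of each library were recovered from these values as whole numbers for 36 of the 38 members and for 17023 genes in all (99.1% of those with a mean value under 10000). Serpinf1 lay above a mean value of 10000, where recovery was not tried, and is given by the authors' values only. Recovered reads summed to 12447086 and 12442977 in the Cbx2-/- libraries and to 12267766 and 11464537 in the wild-type libraries, with size factors of 1.034 and 1.031 in Cbx2-/- and of 1.007 and 0.935 in wild type; these sums leave out the most abundant genes. The numbers 1 and 2 of a library follow the solution and not the replicate numbers of the labels. Cbx2 itself had 27 and 25 reads in the Cbx2-/- libraries, against 324 and 355 in the wild-type libraries, so the genotypes match their labels (log2 fold change −3.58, adjusted p = 2.55e-44 in the authors' deposited table). In bulk libraries like these, fewer cells of a type and less RNA per cell cannot be told apart.

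The Serpin genes described here spanned several orders of magnitude in level. Serpinf1, the pigment epithelium-derived factor, which is a serpin that inhibits no protease, had 17685 per kilobase of transcript in Cbx2-/- cells and 19093 in wild-type cells, by the authors' deposited table. Serpinb6a, the mouse gene related to the human cathepsin G inhibitor SERPINB6, followed with 4764 per kilobase in Cbx2-/- and 4489 in wild type in the authors' deposited table. Serpine2, protease nexin 1, which inhibits thrombin and urokinase, came next with 1852 in Cbx2-/- and 1863 in wild type on the same scale of the authors' deposited table. Serpinb2, Serping1, Serpina3h and Serpinb9b lay between 363 and 543 per kilobase in Cbx2-/- and between 149 and 359 in wild type, and the remaining ones were lower.

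**Figure D1:**
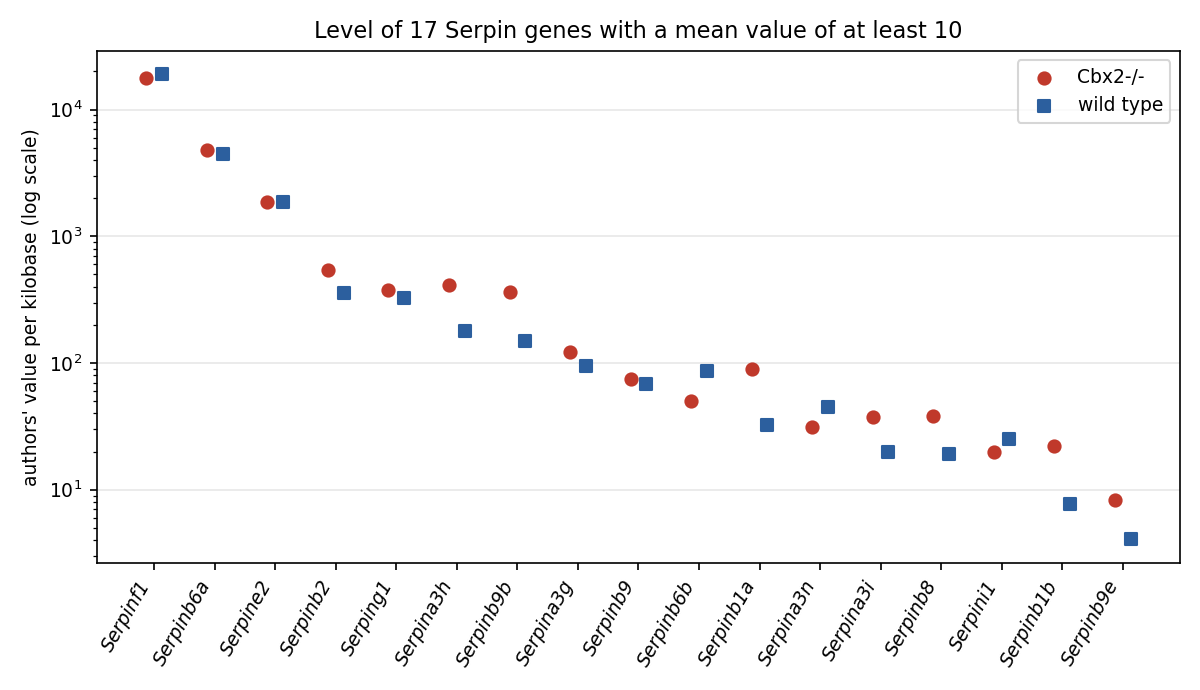
Level of 17 Serpin genes with a mean value of at least 10, as the authors' value per kilobase of transcript on a log axis, with Cbx2-/- cells as circles on the left and wild-type cells as squares on the right of each gene. Serpinf1 stood above the others plotted in both genotypes; Serpina3h, Serpinb9b, Serpinb1a and Serpinb1b showed the widest gaps, with the circle above the square.

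In Cbx2-/- fibroblasts 6 Serpin genes were higher than in wild type, 5 of them intracellular clade B genes (Serpinb9b, Serpinb2, Serpinb1a, Serpinb8 and Serpinb1b) and the other the Serpina3h pseudogene, by 1.51-fold to 2.87-fold on the authors' values. Of the 3 genes that were lower, Serpinf1 stood at 92.6% and Serpinb6b at 57.7% of the wild-type value. In all, 9 of the 38 members (23.7%) had an adjusted p under 0.05 in the authors' deposited table, where 7.78% of all genes did. By direction, 6 of 38 were higher, where 3.48% of all genes were, and 3 of 38 were lower, where 4.30% of all genes were. All 9 were among the 18 members with a mean value of at least 10, a level at which 10.3% of all genes passed, and 0 of the 20 members under 10 passed (DESeq2; 0 also at an unadjusted p under 0.05, and 1, Serpinb6c, by limma below). The median log2 fold change of the 38 members was 0.163, against 0.004 over all genes of the authors' deposited table, with 24 members above 0 and 14 below.

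**Figure D2:**
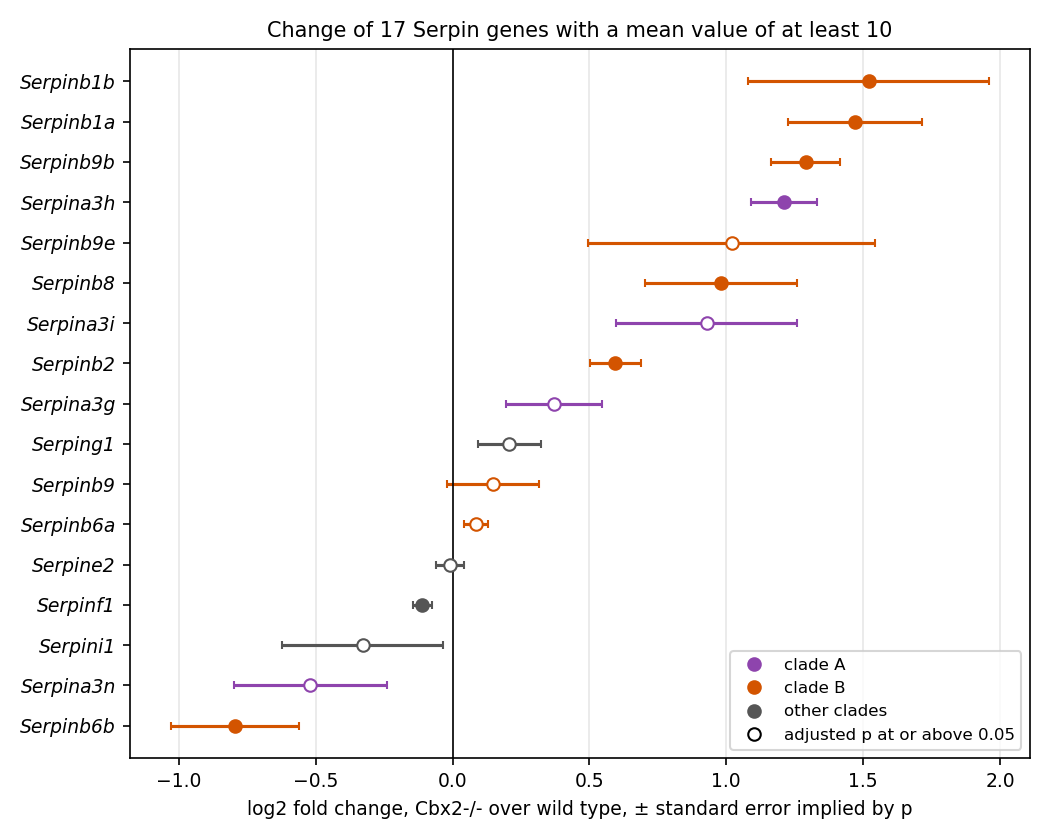
Deposited log2 fold change (Cbx2-/- over wild type) of 17 Serpin genes with a mean value of at least 10, with the standard error implied by the deposited p-value as a bar, coloured by clade; filled points have an adjusted p under 0.05. Clade B genes span the whole range, from Serpinb6b at −0.79 to Serpinb1b at 1.52, while Serpinf1 is called at a small change with a short bar.

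The largest number of differences lay in clade B, in which 5 of 16 members were higher and 1 was lower. Only 9 of these 16 had a mean value of at least 10. Serpinb9b, a mouse copy of the granzyme B inhibitor gene Serpinb9, had 739 and 715 reads in the Cbx2-/- libraries, against 297 and 257 in the wild-type libraries. Both Cbx2-/- libraries held more than 2 times the reads of either wild-type library. The authors' deposited table gives 702 in Cbx2-/- and 287 in wild type, a log2 fold change of 1.29 with an implied standard error of 0.13 (DESeq2, adjusted p = 2.81e-22).

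Serpinb9 itself, which protects cells of the immune system from granzyme B, had 260 and 269 reads in the Cbx2-/- libraries, against 237 and 211 in the wild-type libraries. The Cbx2-/- libraries were both above the wild-type libraries after scaling, by a margin that did not pass the test: the log2 fold change was 0.15 with an implied standard error of 0.17 (adjusted p = 0.931 in the authors' deposited table). Serpinb9e, another copy, was scarce, with 11 and 26 reads in Cbx2-/- and 4 and 7 in wild type. Its libraries did not overlap but the Cbx2-/- libraries differed widely from each other, and the log2 fold change of 1.02 did not pass (adjusted p = 0.345, authors' deposited table). Serpinb9c, Serpinb9d and Serpinb9g had at most 3 reads in any library.

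Serpinb1a encodes an inhibitor of neutrophil elastase, cathepsin G and proteinase 3, and was higher in Cbx2-/- cells. Its reads were 179 and 182 in the Cbx2-/- libraries, against 58 and 58 in the wild-type libraries. The libraries of each genotype lay close together and far from those of the other. The authors' deposited table puts it at 172 in Cbx2-/- and 62.4 in wild type, a log2 fold change of 1.47 with an implied standard error of 0.24 (DESeq2, adjusted p = 9.86e-08). Its copy Serpinb1b had 48 and 37 reads in Cbx2-/- and 11 and 10 in wild type. That gene stood at 38.5 in Cbx2-/- and 13.4 in wild type in the authors' deposited table, with the largest log2 fold change of the members, 1.52, and an implied standard error of 0.44 (adjusted p = 0.00975). The third copy, Serpinb1c, had 1 read in every library.

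Serpinb6b was the exception among the called clade B genes. It had 94 and 95 reads in the Cbx2-/- libraries, against 181 and 137 in the wild-type libraries. Both Cbx2-/- libraries were below both wild-type libraries, which differed from each other by more than the Cbx2-/- libraries did. In the authors' deposited table Serpinb6b had 93.1 in Cbx2-/- and 162 in wild type, a log2 fold change of −0.79 with an implied standard error of 0.23 (DESeq2, adjusted p = 0.0113). Its far more abundant relative Serpinb6a had 7108 and 7011 reads in Cbx2-/- and 6568 and 5950 in wild type. After scaling this was 6875 and 6799 in Cbx2-/- and 6522 and 6361 in wild type, a log2 fold change of 0.09 with an implied standard error of 0.04 that did not pass (adjusted p = 0.346, authors' deposited table). Serpinb6c had 6 and 5 reads in Cbx2-/- and 1 and 0 in wild type.

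On chromosome 1, Serpinb2 and Serpinb8 were both higher in Cbx2-/- cells. Serpinb2 encodes an inhibitor of urokinase, a mostly intracellular protein made by macrophages and keratinocytes among other cells. It had 1091 and 1146 reads in Cbx2-/- and 727 and 662 in wild type. The authors' deposited table gives 1082 in Cbx2-/- and 716 in wild type, a log2 fold change of 0.60 with an implied standard error of 0.09 (DESeq2, adjusted p = 1.34e-08). Serpinb8, whose human counterpart inhibits the proprotein convertase furin, had 110 and 122 reads in Cbx2-/- and 56 and 49 in wild type. Every Cbx2-/- library was again above every wild-type library for both genes. For Serpinb8 the authors' deposited table gives 110 in Cbx2-/- and 55.9 in wild type, a log2 fold change of 0.98 with an implied standard error of 0.28 (adjusted p = 0.00763). Of the neighbours, Serpinb10 had 11 and 15 reads in Cbx2-/- and 4 and 9 in wild type, and Serpinb7 had at most 1 read in a library.

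**Figure D3:**
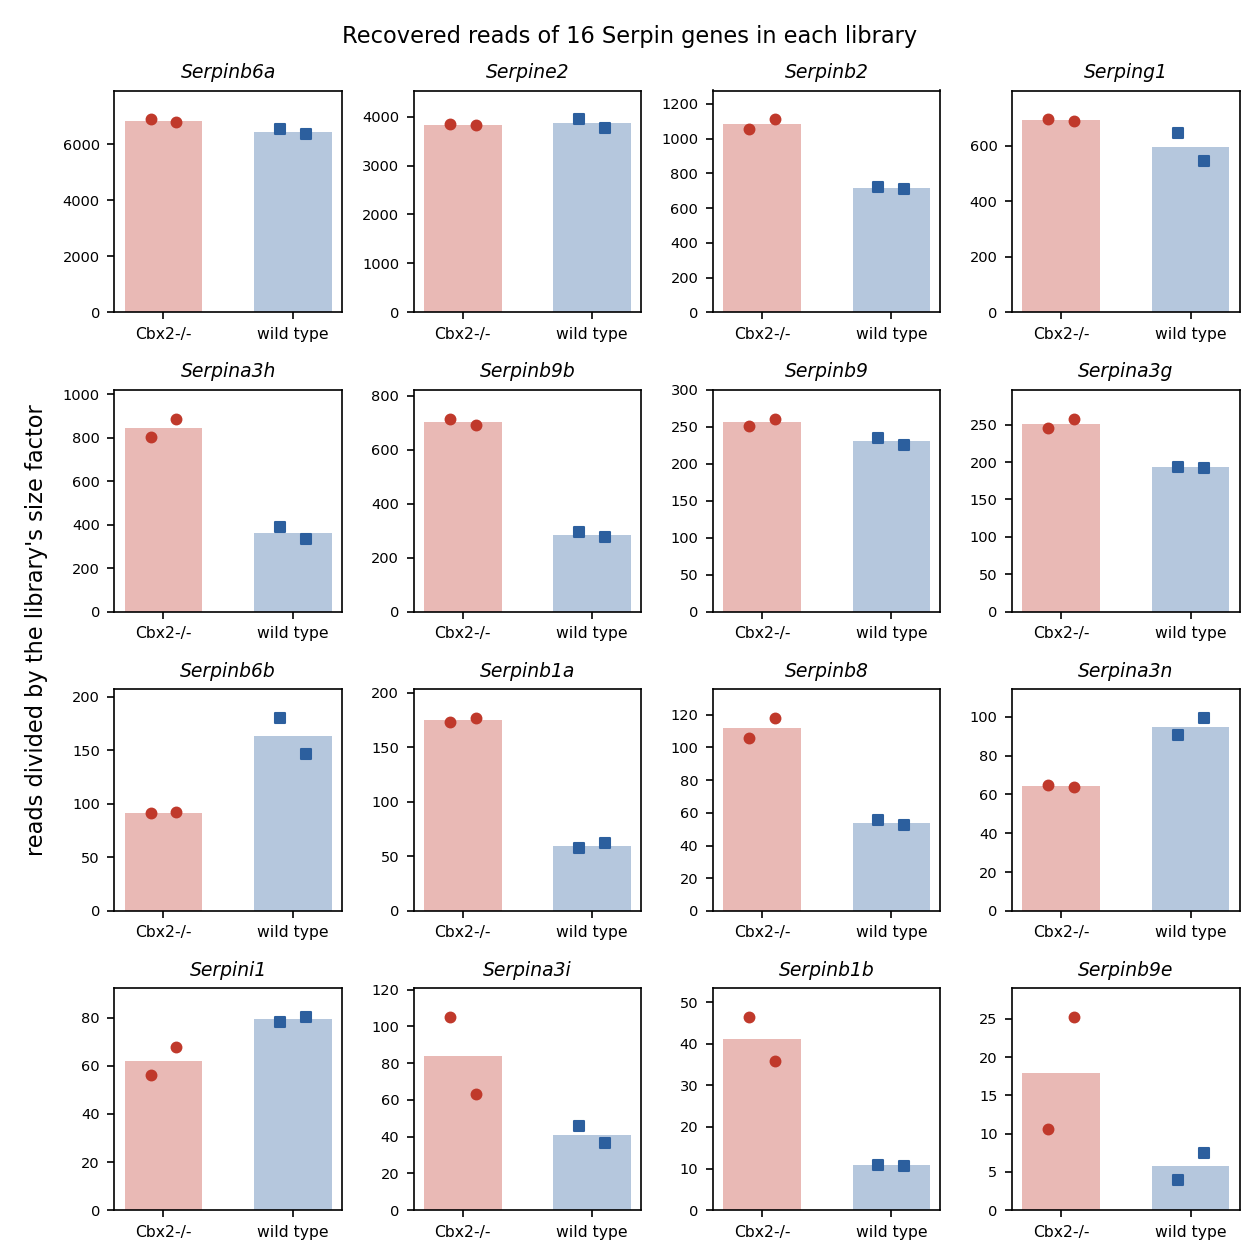
Recovered reads divided by the size factor of the library for the 16 Serpin genes with a mean value of at least 10 whose reads were recovered, with Cbx2-/- libraries as circles on the left and wild-type libraries as squares on the right; bars are the mean of both libraries and each axis starts at 0. The genotypes overlap in Serpine2 only, the Cbx2-/- libraries are above in 12 genes and below in Serpinb6b, Serpina3n and Serpini1.

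Among the 13 clade A genes, only Serpina3h passed the test. RefSeq lists Serpina3h as a transcribed pseudogene, next to the protein-coding Serpina3g and Serpina3i. It had 829 and 915 reads in Cbx2-/- and 391 and 314 in wild type. The authors' deposited table gives 842 in Cbx2-/- and 365 in wild type, a log2 fold change of 1.21 with an implied standard error of 0.12 (DESeq2, adjusted p = 2.80e-21). Serpina3g, an intracellular inhibitor of cysteine cathepsins in mice, had 253 and 266 reads in Cbx2-/- and 195 and 180 in wild type. Its log2 fold change was 0.37 with an implied standard error of 0.18 (adjusted p = 0.269 in the authors' deposited table). Serpina3i had 109 and 65 reads in Cbx2-/- and 46 and 34 in wild type, with the Cbx2-/- libraries apart from each other (log2 fold change 0.93, adjusted p = 0.0632, authors' deposited table). Serpina3f, on the other side of Serpina3g, had 8 and 18 reads in Cbx2-/- and 9 and 2 in wild type, and its libraries overlapped.

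Serpina3n, a secreted inhibitor of granzyme B in mice, lay the other way. It had 67 and 66 reads in Cbx2-/- and 91 and 93 in wild type, and the genotypes did not overlap. The difference, −0.52 on the log2 scale with an implied standard error of 0.28, did not pass (adjusted p = 0.394, authors' deposited table). The other 8 clade A genes had at most 3 reads in any library. They include Serpina6, the plasma carrier of glucocorticoids, and Serpina12, known as vaspin. The promoters of some copies were alike in a global alignment over 250 bases and those of most were not. Serpina3c and Serpina3n were 90.5% identical, and the other Serpina3 pairs 39.5% to 65.9%. Serpinb9d, Serpinb9e and Serpinb9g were 88.3% to 92.9% identical to each other, the other Serpinb9 pairs 45.9% to 64.4%, the Serpinb6 pairs 46.3% to 48.4%, and Serpinb1b and Serpinb1c 49.5%. Transcript sequences were not compared here. Reads that match more than 1 copy can be divided differently by different counting programs, so the values of the Serpina3, Serpinb1, Serpinb6 and Serpinb9 copies are uncertain to that extent.

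The secreted members of the other clades described here changed little. Serpinf1 had 26475 in Cbx2-/- and 28582 in wild type, a log2 fold change of −0.11 with an implied standard error of 0.04 (adjusted p = 0.0266 in the authors' deposited table). The call is of small size and rests on the high level of the gene; with standard errors enlarged 1.5 times it did not pass (adjusted p = 0.559). Under the same widening Serpinb9b, Serpina3h, Serpinb2 and Serpinb1a passed, while Serpinb1b, Serpinb8 and Serpinb6b did not (adjusted p = 0.380, 0.344 and 0.403). Centring all log2 fold changes on the median of the more abundant genes, a shift of −0.0107, also ended the call of Serpinf1 (adjusted p = 0.0595).

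Serpine2 had 3976 and 3943 reads in Cbx2-/- and 3969 and 3532 in wild type. It was the only member with recovered reads and a mean value of at least 10 whose scaled libraries overlapped between the genotypes, and its log2 fold change was −0.01 with an implied standard error of 0.05 (adjusted p = 0.986, authors' deposited table). Serping1, the C1 inhibitor of the complement and kinin cascades, had 717 and 708 reads in Cbx2-/- and 650 and 511 in wild type. Its log2 fold change was 0.21 with an implied standard error of 0.11 (adjusted p = 0.417, authors' deposited table). Serpini1, neuroserpin, an inhibitor of tissue plasminogen activator in neurons, had 58 and 70 reads in Cbx2-/- and 79 and 75 in wild type (log2 fold change −0.33, adjusted p = 0.844, authors' deposited table). Antithrombin (Serpinc1), heparin cofactor II (Serpind1), antiplasmin (Serpinf2) and Serpine3 had at most 3 reads in any library.

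The recovered reads were tested a second time, with limma on log2 scaled reads over the 17023 recovered genes. This fit calls more genes in general, 18.2% of those tested, with 9.21% higher and 9.01% lower in Cbx2-/-. Of the 36 members with reads, 11 were higher and 2 were lower. All 7 called members with reads were called again in the same direction. The reads are of the same 4 libraries and were recovered so as to give the deposited fold changes. The direction was therefore largely fixed in advance, and limma is not an independent test of these calls. The further calls were Serpina3i (adjusted p = 4.42e-04), Serpina3g (0.00716), Serpinb6c (0.0133), Serpinb9e (0.0204) and Serping1 (0.0242), all higher in Cbx2-/-, and Serpina3n (0.0166), lower in Cbx2-/-. Serpinb6c had at most 6 reads in a library. Leaving out any of the 4 libraries left a genotype with 1 library, whose own spread cannot be measured. Whether members passed in these fits changed with a filter on the mean value of at least 10, chosen after seeing the data. No call is therefore read from them, and only effect sizes are given. Serpina3h, Serpinb1a, Serpinb1b, Serpinb2, Serpinb8 and Serpinb9b stayed higher without each library in turn, and Serpinb6b stayed lower. The log2 fold change ranged from 1.25 to 1.36 for Serpinb9b, from 0.56 to 0.64 for Serpinb2 and from −0.97 to −0.68 for Serpinb6b. Among the 16 members with a mean value of at least 10 and recovered reads, both Cbx2-/- libraries were above both wild-type libraries in 12 and below in 3. Over all 12616 genes of that kind the shares were 29.3% above and 29.8% below.

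The called clade B genes lie in 2 clusters. The cluster on chromosome 13 spans chr13:32842092-34002794 in GRCm38.p6 (1.16 Mb) and holds 17 Serpin genes in RefSeq, of which 12 are members; 3 were higher and Serpinb6b was lower. Serpinb1a, Serpinb6b, Serpinb9b and Serpinb1b lie near each other at its low-coordinate end, with Serpinb1c and Serpinb9 between them. Of the 4 other genes of the table inside the cluster, Ripk1, Nqo2 and 1110046J04Rik did not pass, and Gm6093 was higher (40 and 32 reads in Cbx2-/-, 9 and 9 in wild type; adjusted p = 0.0231 in the authors' deposited table). Counting 500 kb to either side, 2 of 11 other genes were higher and 0 lower. The authors' test called 3.48% of all genes higher and 4.30% lower, and the small counts of each cluster were not tested against these shares. The cluster on chromosome 1, at chr1:106861175-107608978 (0.748 Mb), holds 12 Serpin genes in RefSeq and 4 members, of which 2 were higher, with 0 of 4 other genes called within 500 kb by DESeq2. The Serpina cluster at chr12:103616675-104414334 (0.798 Mb) holds 28 Serpin genes in RefSeq and 13 members, of which 1 was higher, with 0 of 13 other genes called within 500 kb; in both clusters 0 of these neighbours reached an unadjusted p under 0.05 and limma called 0. Serpinf1 lies elsewhere, on chromosome 11.

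**Figure D4:**
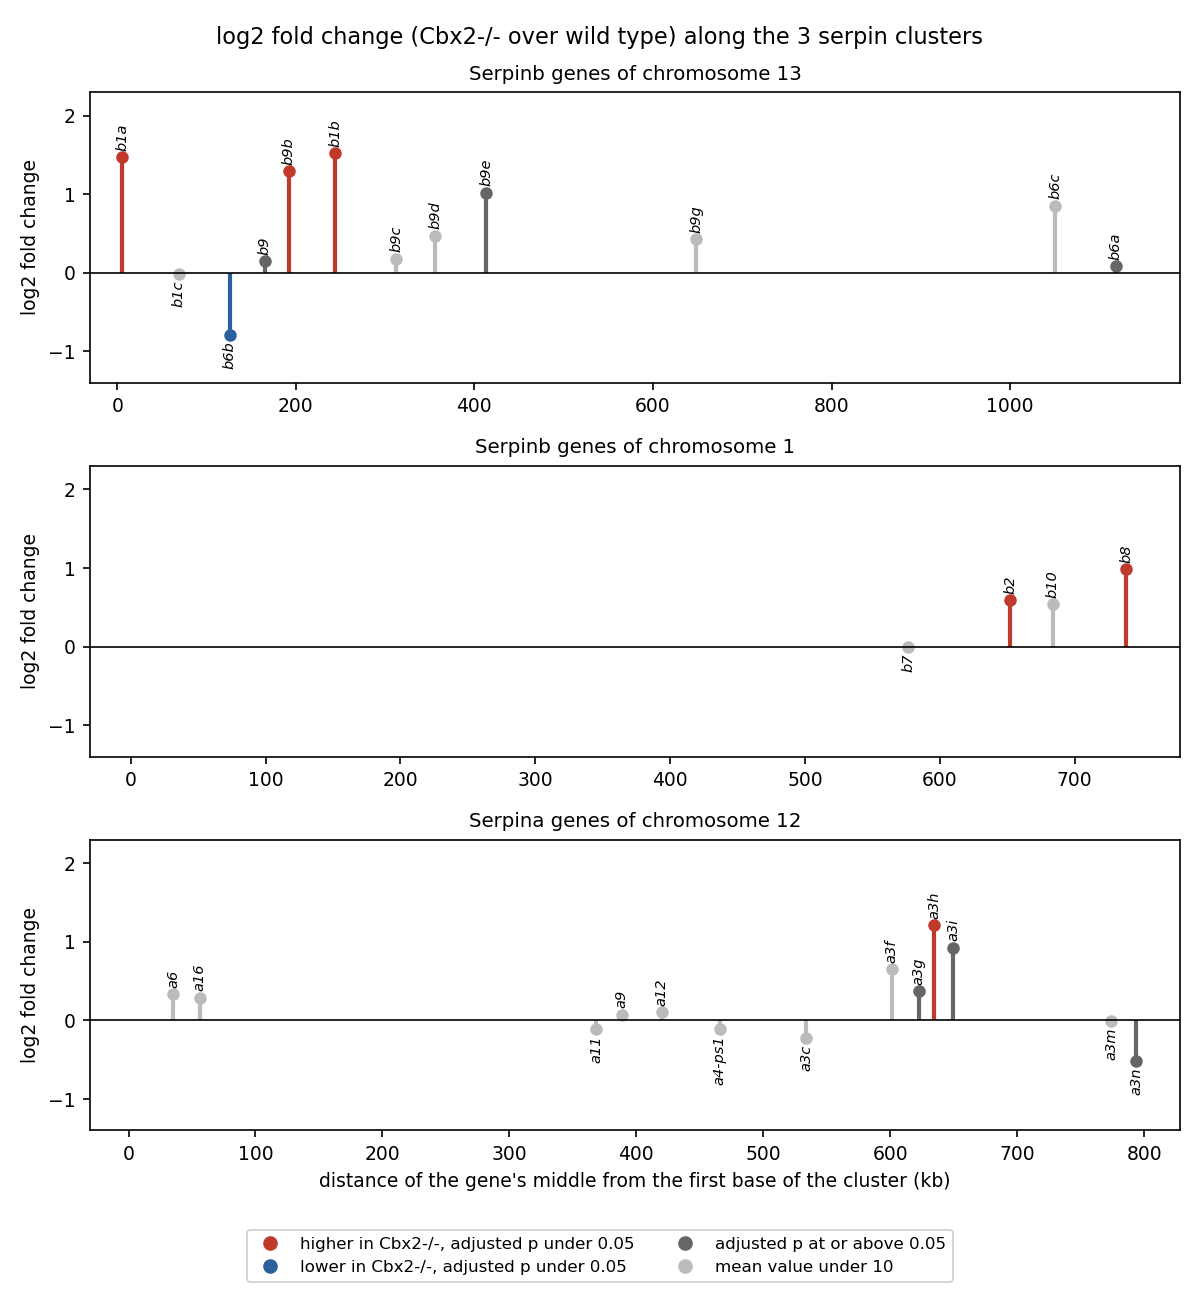
Deposited log2 fold change (Cbx2-/- over wild type) of the members in the clusters of chromosomes 13, 1 and 12, against the distance of the gene's middle from the first base of the cluster in kb; names are given without Serpin, and pale points have a mean value under 10. Serpinb6b at −0.79 lies between Serpinb1a at 1.47 and Serpinb9b at 1.29, and Serpina3h at 1.21 lies between Serpina3g at 0.37 and Serpina3i at 0.93.

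A list drawn up for target proteases of serpins, which also holds the tissue factor gene F3, had 39 genes in the table. Of these 39 genes, 3 were higher and 3 lower in Cbx2-/- by the authors' test. This is 15.4%, where 7.78% of all genes passed, with a median log2 fold change of 0.105, against 0.004 over all genes. limma called 6 higher and 7 lower of the 38 with reads (34.2%, where it called 18.2% of all genes). The higher ones were lysosomal cathepsins: Ctsh had 932 and 948 reads in Cbx2-/- and 295 and 256 in wild type (adjusted p = 1.31e-42, authors' deposited table). Ctss had 87 and 90 reads in Cbx2-/- and 12 and 12 in wild type (adjusted p = 9.40e-09), and Ctsb had 9458 and 9351 in Cbx2-/- and 8188 and 7572 in wild type (adjusted p = 9.41e-04), both by the authors' deposited table. Not all cathepsins of the list rose. Ctsl and Ctsk lay slightly the other way, at −0.08 and −0.19 on the log2 scale. Neither passed (adjusted p = 0.451 and 0.244, authors' deposited table). The lower ones were Htra1, C1s1 (the complement protease that Serping1 inhibits) and Furin, at −0.47, −0.78 and −0.15 on the log2 scale by the authors' deposited table. Urokinase (Plau), the target of Serpinb2, had 3980 and 3977 reads in Cbx2-/- and 4354 and 3802 in wild type, both Cbx2-/- libraries below both wild-type libraries after scaling, and it did not pass (adjusted p = 0.192, authors' deposited table). Tissue plasminogen activator (Plat) had 1852 in Cbx2-/- and 1851 in wild type in the authors' deposited table. Neutrophil elastase (Elane), a target of Serpinb1a, had at most 1 read in a library.

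Of 35 receptors, cofactors and clearance genes of serpins and their proteases, 5 were higher and 7 lower by the authors' test (34.3%, against 7.78% of all genes), with a median log2 fold change of −0.001. limma called 6 higher and 6 lower of the 27 with reads (44.4%, against 18.2%). The urokinase receptor Plaur was higher (3987 and 3920 reads in Cbx2-/-, 2979 and 2900 in wild type; log2 fold change 0.34 in the authors' deposited table). So were Thbd and Procr, thrombomodulin and the endothelial protein C receptor, at 0.36 and 0.44 on the log2 scale by the authors' deposited table, and the heparan sulfate proteoglycans Gpc1 and Sdc4 with 0.26 and 0.18. The lower ones included the thrombin receptor F2r (−0.35), the plasminogen-binding Eno1 (−0.49) and the heparan sulfate genes Ext1 (−0.16), Ext2 (−0.26), Hs2st1 (−0.29) and Sdc3 (−0.24), all by the authors' deposited table. Lrp1, which clears serpin-protease complexes, had 35800 in Cbx2-/- and 42906 in wild type there and did not pass (adjusted p = 0.123 in the authors' deposited table).

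Of 41 protease inhibitors of other families, 5 were higher and 4 lower by the authors' test (9 of 41, where 7.78% of all genes passed), with a median log2 fold change of 0.053. limma called 5 higher and 4 lower of the 38 with reads (23.7%, against 18.2%). Kng1, the kininogen gene, had 199 and 183 reads in Cbx2-/- and 46 and 37 in wild type, the widest rise of this list (log2 fold change 1.99, authors' deposited table). Timp3 and Timp2, inhibitors of matrix metalloproteases, were higher by 1.57-fold and 1.23-fold, and Cd109 and Itih2 by 1.27-fold and 1.87-fold, in the authors' deposited table. The lower ones were Ctla2a, a cysteine protease inhibitor (59 and 78 reads in Cbx2-/-, 227 and 205 in wild type), Pi15 (792 and 755 in Cbx2-/-, 1346 and 1296 in wild type), Tfpi2 (218 and 204 in Cbx2-/-, 307 and 321 in wild type) and Cst3 (3957 and 3967 in Cbx2-/-, 4418 and 4000 in wild type). Serpinh1, the collagen chaperone left out by the rule, had a log2 fold change of −0.18 (adjusted p = 6.38e-07, authors' deposited table).

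Macrophage markers were mostly higher in Cbx2-/- cells, while endothelial and epithelial markers changed in both directions. The median log2 fold changes of these lists were 1.471, −0.023 and 0.005, in that order. Of 18 macrophage markers 10 were higher and 0 lower in Cbx2-/- by DESeq2 (55.6%, where 7.78% of all genes passed). At an unadjusted p under 0.05 there were 13 and 0. By limma there were also 13 and 0 (72.2%, where it called 18.2% of all genes). The summed scaled reads of these markers were 2089 and 2057 in the Cbx2-/- libraries against 629 and 724 in the wild-type libraries. Lyz2 had 976 and 988 reads in Cbx2-/- and 146 and 134 in wild type, and Cd68 had 191 and 206 in Cbx2-/- and 62 and 66 in wild type. The macrophage growth factor receptor Csf1r had 289 and 242 in Cbx2-/- and 234 and 240 in wild type, and Ptprc, the pan-leukocyte marker, had 21 and 16 in Cbx2-/- and 3 and 3 in wild type. Aif1 and C1qb lay the other way without passing the test: Aif1 had 0 and 2 reads in Cbx2-/- and 3 and 3 in wild type, and C1qb had 3 and 1 in Cbx2-/- and 3 and 8 in wild type. Ctss stands both in this list and among the target proteases. Of 9 endothelial markers 2 were higher and 1 lower by DESeq2 (33.3%, against 7.78% of all genes). Cdh5 had 346 and 330 reads in Cbx2-/- and 63 and 50 in wild type, while Pecam1 had at most 3. The lower one, Flt1, had 345 and 415 in Cbx2-/- and 527 and 523 in wild type. The summed scaled reads of the endothelial list were 1115 and 1139 in Cbx2-/- and 774 and 811 in wild type. Of 12 epithelial markers 1 was higher and 3 lower by DESeq2 (33.3%, against 7.78% of all genes). Krt8 was lower (3 and 5 reads in Cbx2-/-, 97 and 100 in wild type), as was Krt18 (75 and 75 in Cbx2-/-, 257 and 254 in wild type). Sfn was lower too (17 and 6 in Cbx2-/-, 59 and 56 in wild type). Dsp was higher (117 and 109 in Cbx2-/-, 31 and 34 in wild type). The epithelial sums were 404 and 375 in Cbx2-/- and 637 and 681 in wild type, with at most 4 reads of Epcam, Krt5 and Krt14 in a library. Several clade B serpins are made by macrophages and epithelial cells, and the part of such cells in the Serpin differences was not tested.

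Hepatocytes and cytotoxic lymphocytes, which make many plasma serpins and most granzymes, left few reads. The 5 hepatocyte markers in the table summed to 12.6 and 18.4 scaled reads in Cbx2-/- and 4.96 and 11.8 in wild type, with Alb at 0 and 0 in Cbx2-/- and 1 and 0 in wild type. The 2 cytotoxic lymphocyte markers in the table summed to 5.80 and 3.88 in Cbx2-/- and 2.98 and 3.21 in wild type, and 0 of either list passed the authors' test, at an unadjusted p under 0.05 too, while limma called 1 hepatocyte marker higher and 0 cytotoxic lymphocyte markers. Collagen RNA was abundant in both genotypes: Col1a1 had 227630 in Cbx2-/- and 264489 in wild type in the authors' deposited table (adjusted p = 0.0653). Of 14 fibroblast markers 8 were lower and 1, Thy1, was higher in Cbx2-/- by the authors' test (64.3%, against 7.78% of all genes). Pdgfra had 1425 and 1497 reads in Cbx2-/- and 2255 and 1953 in wild type.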

How the data were processed

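RNA-seq of Cbx2-/- and wild-type fibroblasts (2 libraries each, grouped by the genotype in the labels) was examined through 1 gene table. The authors' tools were RSEM, Bowtie2, HISAT2 and DESeq2 on mm10, per the submitters' processing notes (versions and roles not given in the sources used here). For each genotype the authors deposited 1 normalised read signal, with a log2 fold change (shrunken, Cbx2-/- over wild type) and a p-value with its adjustment, which equals the Benjamini-Hochberg adjustment over 17441 genes to within 1.33e-06. A gene was called at an adjusted p under 0.05. Counts per library had been planned for; as the table gives values per genotype, the authors' own test is the main result. The standard error is implied by the fold change and p, and covers the spread between libraries as modelled by the authors.

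Reads per library were recovered as whole numbers that give both the deposited sum of scaled reads (tolerance 6e-09) and the deposited fold change (tolerance 1e-06, from a negative binomial fit with a normal prior of SD 1.0858 whose dispersion is set by the deposited p). Of 17186 genes with a mean value under 10000, 17023 were recovered (99.1%). Values moved off by a random amount still matched in 2.00% of 1050 trials: in 0 below a mean of 1000, in 3.33% from 1000 to 2000 and in 10.7% above 2000. Reads of genes at these higher levels are therefore less sure. Among them are Serpinb6a, Serpine2, Ctsb, Plau, Plaur, Cst3, Pdgfra and Pi15. The mean chi-square per gene between libraries was 1.49 in Cbx2-/- and 1.92 in wild type, above the 1 that sampling noise gives. limma 3.58.1 (R 4.3.3, with trend and robust settings) tested log2(reads / size factor + 0.5). The recovery and the limma fit were tested on simulated data. Promoters are RefSeq sequences (GRCm38.p6), read with Python 3.11.15; both strands were searched.

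The members, the protease, receptor, inhibitor and marker lists and the motifs were chosen with earlier results of these data known. Some genes counted in the totals are not reported here. The other Serpin genes are all accounted for, and their called members and the 8 with the highest level per kilobase are given in full; of the lists, up to 12 called genes each, by adjusted p, and the defining markers of each cell type are named. Plau, Plat, Lrp1, Elane, Ctsl, Ctsk, Flt1, Ripk1, Nqo2, Gm6093 and 1110046J04Rik were named after their values were seen. Alternatives were other thresholds, filters, a centring, larger standard errors, another pseudocount and leaving out each library.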

Additional observations from a re-analysis of the deposited data

How the results depend on the processing

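The 6 higher and 3 lower Serpin genes of the authors' test became 1 lower at an adjusted p under 0.01, 0 lower where an absolute log2 fold change of at least 1 was asked for, and 3 higher when only genes at or above the median mean value were tested, which removes low genes. With standard errors 1.5 times wider, 0 were lower (3 at an unadjusted p under 0.05), and Serpinb6b, Serpinb1b and Serpinb8 also missed the threshold (adjusted p = 0.403, 0.380 and 0.344). Centring ended the Serpinf1 call. By limma, 11 higher and 2 lower genes became 0 and 0 without any 1 library (range 0 to 0). With a mean value of at least 10, they ranged from 7 to 10 higher and from 1 to 2 lower over the libraries left out; the lowest count of higher genes, 7, came without Cbx2-/- library 2. No called member changed direction under any alternative run. In the leave-one-out fits the lone library of a genotype is assumed to vary like the others.

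No paired analysis was possible because the table holds 1 value per genotype and the recovered libraries carry no replicate number. The planned edgeR and DESeq2 refits were not run for lack of deposited counts. Depth limits the 20 members with a mean value under 10, none of which passed the authors' test and of which limma called Serpinb6c.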
